A study of Rattus norvegicus with 10 samples.

Results

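Pax6 and Gja1, a transcription factor gene and a gap junction gene that mark the epithelium of the lens, were followed in the lens capsules of rats after cold treatment. They were taken by gene name, 2 genes of the 3334 in the deposited table, with 1 row each. RNA came from the membrane that encloses the lens together with its adherent epithelium. The animals were male Sprague-Dawley rats of 6 weeks, and both capsules of a rat (2) made up its sample. In the Hypothermia Group (n = 5) the isolated lenses were kept for 8 h at 4°C in Hibernate-A medium, whereas capsules of the Normal Group (n = 5) were taken directly after euthanasia. The Normal lenses had no time in medium, so cold, medium and time outside the animal cannot be told apart in this design.

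PAX6 is a DNA-binding protein with a paired domain and a homeodomain. It is required for the eye to form, and in the mature lens its mRNA is found mainly in the epithelium, where it helps to keep the cells in the epithelial state. Gja1 encodes connexin 43, the gap junction protein that couples lens epithelial cells to each other, whereas Gja3 encodes connexin 46, a gap junction protein of the fibre cells. As epithelial cells turn into fibre cells they lose connexin 43 and start to make large amounts of crystallins and of membrane proteins such as Mip. The capsules held abundant lens mRNA, and the α-crystallin gene Cryaa ranked 1 of 3334 by mean FPKM. FPKM here is the reads per length of a gene after scaling by the authors' size factor for each sample.

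Pax6 lies on the plus strand of chromosome 3 of Rnor_6.0, from 95707386 to 95728624, and Gja1 on the plus strand of chromosome 20, from 37876650 to 37889089. The deposited table gave their lengths over counted exons as 2494 and 3127 bases. No other gene of the table overlapped them in Rnor_6.0, nor did any gene of the RefSeq table in GRCr8. The 250 bases before the RefSeq start site of each gene are shown because both genes had lower values in the cold-treated capsules and such a window is where shared or private promoter motifs would be looked for. They were read from RefSeq's GRCr8 sequence, on the plus strand, at chr3:112590346-112590595 for Pax6 and at chr20:36302314-36302563 for Gja1, and capitals mark the letters of a motif found.
Pax6: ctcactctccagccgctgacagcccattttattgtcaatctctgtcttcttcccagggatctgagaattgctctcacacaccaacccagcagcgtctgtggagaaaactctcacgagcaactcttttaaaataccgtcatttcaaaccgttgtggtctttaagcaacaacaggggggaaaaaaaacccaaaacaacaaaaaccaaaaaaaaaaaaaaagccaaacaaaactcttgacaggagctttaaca
Gja1: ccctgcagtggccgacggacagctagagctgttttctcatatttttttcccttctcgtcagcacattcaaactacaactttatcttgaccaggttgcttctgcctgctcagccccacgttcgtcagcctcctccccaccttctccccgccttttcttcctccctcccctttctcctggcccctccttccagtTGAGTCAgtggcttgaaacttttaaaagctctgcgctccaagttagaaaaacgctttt
Both strands were searched for the TATA box TATAAA, for the CCAAT box, for the GC box GGGCGG and for the AP-1 motif TGANTCA. Only TGANTCA was found, once in Gja1 at bases -58 to -52 from the start site, and no motif overlapped another. Over 33469 RefSeq promoter windows of the same length, TGANTCA was present in 6.34%, TATAAA in 12.9%, CCAAT in 34% and GGGCGG in 30.5%. The GC content was 42.0% for Pax6 and 51.2% for Gja1, with a median of 51.2% over all windows. These matches describe letters in a window and no binding was measured.

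The deposited table was itself a list chosen by the outcome. The smallest difference between the 2 group means in it was 0.25 on the log2 scale, so a gene that differed less could not be in it. Any test of a listed gene between the groups therefore starts from a gene already selected for that difference, and p-values below describe the size of a change against its spread rather than independent evidence that it happened. Of the 3222 genes with enough counts to be tested, 72.9% were called at an adjusted p under 0.05 in either direction, 52.3% higher and 20.5% lower in the Hypothermia Group. With adjustment over these tested genes alone, 2052 were called higher and 1169 lower (edgeR), so few listed genes had a spread that was large for their change. The paper's integrated analysis took genes at an adjusted p under 0.05 and a log2 change above 0.25 in size. A listed gene not called below may thus have passed the authors' own test. Without overlap between groups were 58.5% of tested genes, with 16.7% lower and 41.9% higher in the Hypothermia Group. Hypothermia rats had 9026144 to 12415121 reads on listed genes and Normal rats 4792595 to 8177803. These sums are parts of the libraries, and each rat's full depth is unknown. Counts were therefore scaled by the authors' size factors, 0.744 to 0.980 for Hypothermia rats and 1.08 to 1.26 for Normal rats.

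Pax6 was lower in every Hypothermia capsule sample than in every Normal one, at 83.8% of the Normal mean. In the Normal Group its FPKM was 164, 169, 164, 168 and 168 in replicates 1 to 5. In the Hypothermia Group it was 132, 151, 139, 142 and 134. The lowest Normal rat (replicate 1) thus lay above the highest Hypothermia rat (replicate 2), and the groups did not overlap, as for 16.7% of tested genes that were lower in the Hypothermia Group. Means were 140 ± 7.29 (SD, n = 5) after hypothermia and 167 ± 2.62 (SD, n = 5) without it. The log2 fold change was -0.26 (standard error 0.078, 95% interval -0.41 to -0.10), and Pax6 fell with an adjusted p of 0.0498 by the edgeR quasi-likelihood test, adjusted after Benjamini and Hochberg over 17000 genes. This call stood just inside the threshold of 0.05. When the rats were omitted in turn, the call was kept in 1 of 10 fits, the one without Hypothermia replicate 2, and was lost without any other rat, with adjusted p-values up to 0.126 (edgeR).

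Gja1 had 74.1% of the Normal mean, with a wider spread among rats. Its FPKM in the Normal Group was 363, 357, 425, 481 and 397 in replicates 1 to 5, and in the Hypothermia Group 265, 299, 251, 345 and 339. Every Hypothermia rat lay below every Normal rat, but the gap was narrow, between Hypothermia replicate 4 and Normal replicate 2. Means were 300 ± 42.4 (SD, n = 5) after hypothermia and 405 ± 50.7 (SD, n = 5) without it. The log2 fold change was -0.43 (standard error 0.14, 95% interval -0.70 to -0.16), with an adjusted p of 0.0567 by the edgeR quasi-likelihood test, adjusted after Benjamini and Hochberg over 17000 genes, so Gja1 was not called. With rats omitted in turn it was called in 0 of 10 fits (edgeR, adjusted p up to 0.150), while its unadjusted p in the fit to all rats was 0.00828 and DESeq2 on the same size factors gave an adjusted p of 0.00439.

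**Figure D1:**
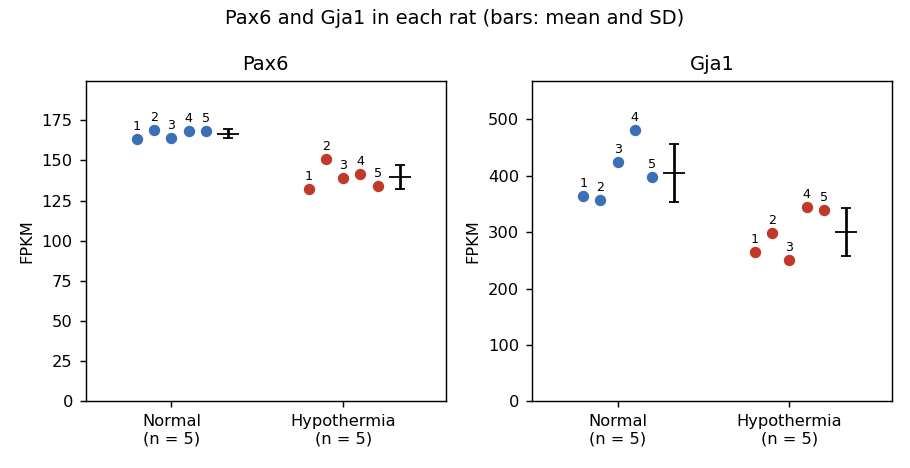
FPKM of Pax6 (left) and Gja1 (right) in each rat of the Normal and Hypothermia Groups. Points are rats, numbered by replicate, and black bars are the group mean and SD (n = 5); both axes start at 0. The Pax6 points of the Normal Group lie within 164 to 169, the Hypothermia points between 132 and 151, and the Gja1 groups are wider but also do not overlap.

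The 2 genes differed in how steady they were among rats. Between 4141 and 8734 reads per rat were counted for Pax6 and between 10405 and 31314 for Gja1, so counting error was small, near 1.43% and 1.11% for Pax6 in the Hypothermia and Normal Groups. The coefficient of variation of the Pax6 normalized count was 1.57% in the Normal Group, the 4th lowest of the 2981 listed genes that reached a mean of 50 normalized counts. In the Hypothermia Group it was 5.22%, the 128th lowest. For Gja1 the coefficients were 12.5% and 14.1%, which ranked 1538th and 1669th. The Normal rats were thus nearly alike in Pax6, while their Gja1 values were in the middle of the range of listed genes for spread. Few listed genes had a spread that was large for their change, and the Pax6 change was small. Its low rank among listed genes may follow in part from that selection, which was not tested.

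This steadiness also bears on the Pax6 test. From its own 10 values on the log2 scale, the standard error of the Pax6 difference was 0.035, while the edgeR fit, which shares information on spread among genes, gave 0.078, 2.25 times as large. For Gja1 the same ratio was 1.13. With DESeq2 on the same size factors the standard error for Pax6 was 0.051 and the adjusted p 2.19e-05, at a log2 fold change of -0.25.

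The Pax6 difference was small for this table, while that of Gja1 was near the middle of the lower genes. Pax6 lay close to the limit of the list: the ratio of the authors' group means was -0.26 on the log2 scale, and 29 of the 3334 genes had a smaller one in either direction. For Gja1, 1273 genes had a smaller one. Of the 1169 tested genes with a log2 fold change below 0, 1149 were lower than Pax6 and 589 lower than Gja1, and the median over these genes was -0.44. Both genes were abundant nonetheless, since Gja1 ranked 98th and Pax6 196th of 3334 by mean FPKM.

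**Figure D2:**
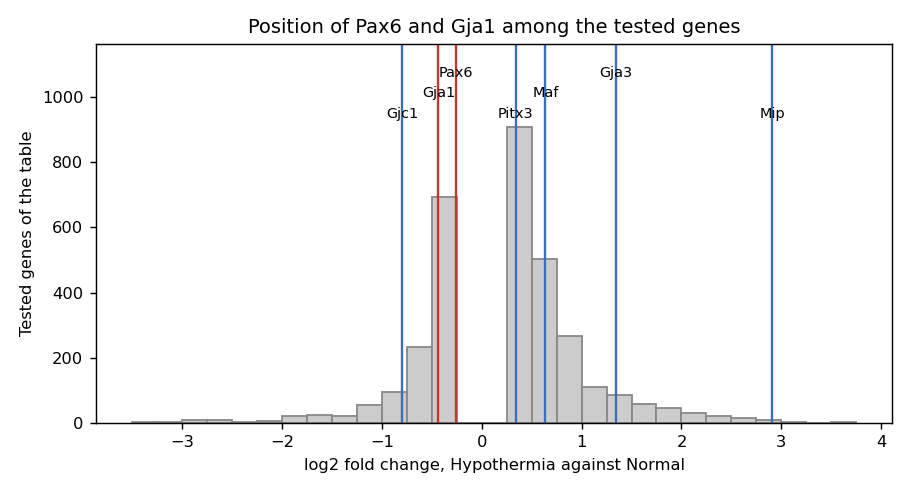
Histogram of log2 fold changes (Hypothermia against Normal, edgeR with the authors' size factors) over the 3222 tested genes, in bins of 0.25, with values beyond the axis counted in the end bins. Red lines mark Pax6 (-0.26) and Gja1 (-0.43), blue lines 5 other genes of the lens or connexin lists; the empty centre is the range that the selection of the table removed, and Pax6 stands at its edge.

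Whether the 2 genes changed by different amounts was asked with the ratio of Gja1 to Pax6 FPKM within each rat, which no scaling of the libraries can move. The ratio was 2.22, 2.11, 2.59, 2.86 and 2.36 in Normal replicates 1 to 5 and 2.0, 1.98, 1.80, 2.43 and 2.53 in Hypothermia replicates 1 to 5. The groups overlapped. On the log2 scale the mean was 1.09 ± 0.21 (SD, n = 5) in Hypothermia rats and 1.27 ± 0.17 (SD, n = 5) in Normal rats, a difference of -0.18 (standard error 0.12, exact permutation test, two-sided p = 0.198). A difference in the size of the 2 changes was not detected with 5 rats a group, and with 1 rat left out it ranged from -0.24 to -0.12.

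Against the summed genes of a lens fibre list, of which Cryaa was the most abundant, both members stood far lower in the cold-treated capsules. How much of the RNA of these genes came from fibre cells was not measured. Of 32 genes on a list of lens fibre genes, 27 were in the table, and 26 of these were called higher in the Hypothermia Group (edgeR), with a median log2 fold change of 2.08 over the 27, where 52.3% of all tested genes were called higher and the median over all was 0.36. With TMM 22 of the 27 were called higher (19.8% of all tested genes), and with listed-gene totals 11 were called higher and 1, Maf, lower (1.77% and 74.4% of all). Their summed FPKM was 372911 to 799443 in Hypothermia rats and 52956 to 262584 in Normal rats. The log2 ratio of Pax6 to this sum was -11.89 ± 0.49 (SD, n = 5) in Hypothermia rats and -9.52 ± 0.87 (SD, n = 5) in Normal rats, a difference of -2.37 (two-sided exact permutation p = 0.00794, the lowest value this design can reach). For Gja1 the ratios were -10.79 ± 0.48 (SD, n = 5) and -8.25 ± 0.997 (SD, n = 5), a difference of -2.55 (two-sided exact permutation p = 0.00794). Both members were lower and the fibre sum higher without overlap, so these ratios had to separate the groups. Both p-values were thereby fixed at the lowest possible value. The members and the fibre genes also all came from a table chosen for a difference between these groups in either direction. These ratios thus describe a size and are no independent test.

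Among connexins and pannexins, the channel protein families to which Gja1 belongs or is related, 5 of 23 genes were in the table and the other 18 were not analysed here. Gja1 was the most abundant of the 5 in the Normal Group. Gja3, encoding connexin 46 of the fibre cells, had an FPKM of 190, 161, 105, 101 and 149 in Normal replicates 1 to 5 and of 407, 282, 410, 273 and 416 in Hypothermia replicates 1 to 5. It rose by 1.35 on the log2 scale (standard error 0.20, adjusted p = 0.00459 from edgeR), without overlap of the groups, and by 0.14 (adjusted p = 1.0) with listed-gene totals.

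The ratio of Gja1 to Gja3 FPKM within a rat was picked after the values had been seen and is given as a description. It was 1.92, 2.22, 4.06, 4.78 and 2.67 in Normal replicates 1 to 5, so connexin 43 mRNA exceeded connexin 46 mRNA per length in each of these rats. In Hypothermia replicates 1 to 5 it was 0.651, 1.06, 0.613, 1.26 and 0.815, below 1 in replicates 1, 3 and 5. Its mean was 0.880 ± 0.28 (SD, n = 5) after hypothermia and 3.13 ± 1.23 (SD, n = 5) without it. Normal replicates 3 and 4 had the highest Gja1 and the lowest Gja3 of their group, and they also had the lowest summed counts of listed genes.

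**Figure D3:**
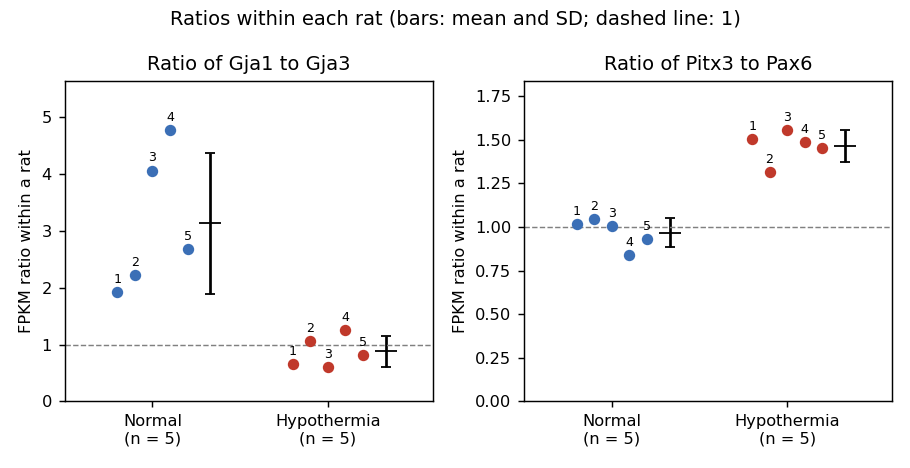
Ratio of FPKM values within each rat for Gja1 to Gja3 (left) and Pitx3 to Pax6 (right). Points are rats, numbered by replicate, black bars are the group mean and SD (n = 5), and the dashed line marks a ratio of 1. The Gja1 to Gja3 ratio lies between 1.92 and 4.78 in the Normal Group and between 0.613 and 1.26 in the Hypothermia Group, and the Pitx3 to Pax6 ratio between 0.839 and 1.05 and between 1.31 and 1.56.

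The other connexin genes were far less abundant. Gjc1, encoding connexin 45, was lower in the Hypothermia Group like Gja1, at 1.87 ± 0.23 FPKM (SD, n = 5) where Normal rats had 3.26 ± 0.35 (SD, n = 5), with no overlap, and it fell by 0.80 on the log2 scale (standard error 0.15, adjusted p = 0.00745 from edgeR). Gje1, a lens connexin gene, reached 10.4 ± 4.61 FPKM (SD, n = 5) after hypothermia and 2.92 ± 2.62 (SD, n = 5) without it, a log2 fold change of 1.84 (adjusted p = 0.0405 from edgeR), and its groups overlapped. That call was kept in 1 of 10 fits without 1 rat each. The pannexin gene Panx2 had a log2 fold change of 0.78 (adjusted p = 0.0156 from edgeR), which became -0.48 when counts were scaled by listed-gene totals. With TMM neither Gje1 nor Panx2 was called (adjusted p = 0.0707 and 0.0701 from edgeR).

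For the proteins that bind or regulate connexin 43, 4 of 29 listed genes were in the table. Of these Mapk3, Ezr and Dbn1 were called higher in the Hypothermia Group (edgeR), 3 of 4 where 52.3% of all tested genes were. Mapk3 encodes the kinase ERK1, which phosphorylates connexin 43, and had a log2 fold change of 0.53 (standard error 0.11). Ezr encodes ezrin, a linker of membrane proteins to actin, with 0.80 (standard error 0.18), and Dbn1 encodes drebrin, an actin-binding partner of connexin 43, with 0.52 (standard error 0.14). The protein kinase C gene Prkca had 1.04 (standard error 0.34) and missed the threshold (adjusted p = 0.0712 from edgeR). With TMM Mapk3, Ezr and Dbn1 were not called (adjusted p = 0.0608, 0.0533 and 0.651 from edgeR), and with listed-gene totals all 4 were below 0, from -0.73 for Dbn1 to -0.21 for Prkca, and Mapk3 and Dbn1 were called lower (adjusted p = 0.00401 and 0.0124).

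Pax6 was the only one of 9 Pax genes in the table. Of a list of 12 lens epithelial genes, 4 were in the table, and Foxe3, Cdh1, Tfap2a, Sox2, Six3, Meis1, Meis2 and Fgfr2 were not analysed here. Of the 4, 1 was called higher and 1 lower, where 52.3% and 20.5% of all tested genes were. With TMM 0 were called higher and 2 lower (19.8% and 34.2% of all), and with listed-gene totals all 4 were called lower (74.4% of all, edgeR). Pitx3, a homeodomain gene of the lens, had an FPKM of 166, 177, 165, 141 and 156 in Normal replicates 1 to 5 and of 199, 198, 217, 210 and 195 in Hypothermia replicates 1 to 5. It was higher without overlap, with a log2 fold change of 0.34 (standard error 0.083, adjusted p = 0.0198 from edgeR), which was 0.05 with TMM (adjusted p = 1.0 from edgeR) and -0.89 with listed-gene totals. Mab21l1, an eye development gene, had 0.26 (adjusted p = 0.166 from edgeR) with overlapping groups, and with TMM and listed-gene totals its value was -0.02 and -0.96.

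Pax6 was lower and Pitx3 higher without overlap, so their ratio within a rat had to separate the groups, whatever the scaling. The ratio thus describes a size and is no independent test. The ratio of Pitx3 to Pax6 FPKM, picked after the values had been seen, was 1.02, 1.05, 1.0, 0.839 and 0.929 in Normal replicates 1 to 5, so these 2 transcription factor genes were about equally abundant per length. In Hypothermia replicates 1 to 5 the ratio was 1.5, 1.31, 1.56, 1.49 and 1.45. Its mean was 1.46 ± 0.09 (SD, n = 5) after hypothermia and 0.967 ± 0.08 (SD, n = 5) without it.

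Among 30 transcription factor genes of the eye field and lens, 9 were in the table and 8 were tested, with 4 called higher (Pitx3, Maf, Hsf4 and Eya4) and only Pax6 called lower (edgeR). These 4 and 1 of 8 were near the shares over all tested genes, 52.3% and 20.5%. With TMM Pax6, Eya1 and Eya3 were called lower and only Hsf4 higher (34.2% and 19.8% of all). Maf, which drives crystallin genes in fibre cells, was at 134 ± 27.1 FPKM (SD, n = 5) after hypothermia and 86.0 ± 11.3 (SD, n = 5) without it, a log2 fold change of 0.64 (adjusted p = 0.0134 from edgeR) that became 0.34 with TMM (adjusted p = 0.0619 from edgeR) and -0.59 with listed-gene totals. The Eya genes encode cofactors of homeodomain proteins of the eye field. Eya4 had a log2 fold change of 1.29 (adjusted p = 0.0316 from edgeR, and 0.0792 with TMM), while Eya1 and Eya3 had -0.65 and -0.26 and were not called (adjusted p = 0.0631 and 0.0882 from edgeR), though both were with TMM (0.017 and 0.00924). Maf, Pitx3 and Pax6 had mean FPKM values of the same order, and those of Eya1, Eya3 and Eya4 were at most 6.35.

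The genes whose pattern over the 10 rats was most like that of Pax6 were found by the root mean square difference of centred log2 normalized counts. They were Spopl (0.037), Msantd4 (0.039), Resf1 (0.045), Thoc2 (0.046) and Sin3a (0.046), against a median of 0.37 over 2980 genes. All 5 were lower without overlap, by log2 fold changes of -0.30 to -0.27, where 16.7% of all tested genes were lower without overlap. For Gja1 the closest were Wdr19 (0.095), Heph (0.095), Pfkm (0.097), Evc2 (0.097) and Abhd2 (0.097), against a median of 0.48. Their log2 fold changes were between -0.51 and -0.36, and the groups overlapped for Pfkm. The 5 genes of each member were picked for likeness over these same rats. A change close to that of the member was thus largely fixed by the choice. Gja1 itself was 605th of 2980 in likeness to Pax6, with a difference of 0.19, so the pair were not each other's nearest genes.

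Pax6 and Gja1 are not confined to lens epithelium. Pax6 is also expressed in retinal neurons, ciliary epithelium and iris, and Gja1 in glia, fibroblasts, endothelium and pigment cells. In bulk capsules, fewer cells of a type and less RNA per cell cannot be told apart. Of 68 markers of other cell types, 14 were in the table, 13 of them with a lower mean in the Hypothermia Group, and of the 11 tested, 2 were called lower (Calb2 and Pmel) and 0 higher (edgeR). Over all tested genes 20.5% were called lower, 52.3% higher, and 36.3% had a log2 fold change below 0. With TMM the markers Calb2, Rlbp1, Pmel, Tek, Glul and Slc4a5 were called lower (adjusted p from 0.00313 to 0.025, edgeR) and 0 higher. Of all tested genes 34.2% were called lower and 19.8% higher with TMM. The 2 ciliary epithelium markers in the table, Mfrp and Slc4a5, summed to an FPKM of 17.2 to 36.6 in Hypothermia rats and 35.8 to 74.3 in Normal rats. Over the 2 glial markers, Glul and Rlbp1, the sum was between 75.5 and 131 against between 123 and 231, nearly all of it from Glul.

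Markers of pigment cells and retinal neurons were near 0. The 3 pigment cell markers of the table (Rpe65, Tyr and Pmel) summed to an FPKM of 0.520 to 1.87 in Hypothermia rats and 1.53 to 4.83 in Normal rats. For 3 neuron markers (Tfap2b, Calb2 and Rbfox3) the sums were 1.2 to 4.2 and 1.75 to 3.09, and Calb2 was at 0 counts in 4 of the Hypothermia rats and in 0 of the Normal rats. The fibroblast markers Col1a1 and Fbn1 summed to between 5.53 and 29.6 against between 7.58 and 183, most of it from Fbn1 in every rat. Col1a1 alone was at most 5.51, in Normal replicate 4, and was 0.623 in Normal replicate 5, where Fbn1 was 183. The cell type behind the Fbn1 values was not tested. The endothelial marker Tek had an FPKM between 2.07 and 3.47 against between 2.93 and 4.04, and the smooth muscle marker Tagln one between 1.20 and 2.51 against between 1.53 and 13.2. No photoreceptor, corneal, leukocyte or red cell marker of the lists was in the table, and those were not analysed here. The part of these cells in the Pax6 and Gja1 values was not tested.

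The direction of both members was below 0 in all 19 alternative fits, but its size followed the scaling. With the authors' size factors the groups did not overlap, so the sign could not turn in those fits. The other scalings moved the listed genes down, so the direction is no independent test. TMM and median-of-ratios factors computed on the listed genes moved the median of all listed genes by -0.29 and -0.31 on the log2 scale and placed Pax6 at -0.54 and -0.56 and Gja1 at -0.72 and -0.75. Scaling by listed-gene totals moved the median by -1.23 and gave -1.48 and -1.69. Relative to the median of the listed genes in the same fit, Pax6 lay between -0.62 and -0.61 and Gja1 between -0.82 and -0.80 under these 4 scalings. A scaling moves all genes by nearly the same amount, so these differences had to stay nearly equal and test nothing. TMM and median-of-ratios factors rest on a majority of genes without a difference, and this table was selected to hold genes with one.

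**Figure D4:**
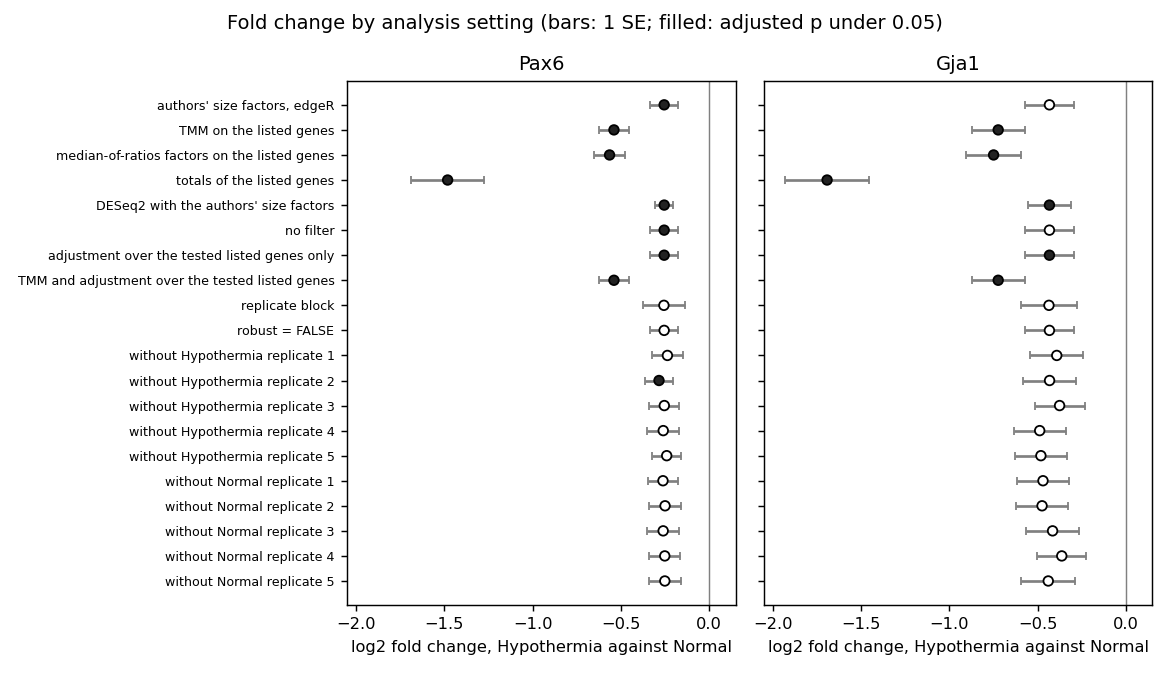
Log2 fold change of Pax6 (left) and Gja1 (right) between the Hypothermia and Normal Groups under the reported analysis (top row) and 19 alternatives. Points are estimates with bars of 1 standard error, filled where the adjusted p was under 0.05; for both genes all points lie below 0, those with listed-gene totals are the lowest, and Pax6 is filled in 1 of the 10 fits that leave out a rat.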

How the data were processed

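RNA-seq was analysed for 10 lens capsule samples. The deposited counts are whole reads per gene, made by the authors with HISAT2 2.0.5 on Rnor_6.0 and featureCounts 1.5.0-p3, without normalization. The FPKM values the authors deposited were checked to use their DESeq2 1.16.1 size factors, so they give no library depth. The 2 columns of group means hold the authors' mean normalized counts, a signal from which the size factors were recovered by least squares (largest relative error 9.19e-10). The authors' own fold changes and p-values were not used. The library kit is not stated to keep strand, so antisense reads cannot be told apart.

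Counts of all 3334 genes (124 without a name) entered 1 model in R 4.3.3 with edgeR 4.0.16, a quasi-likelihood fit (robust, after filterByExpr) in which group was the sole term and the recovered size factors set the scale. The procedure was tested on simulated counts. Each standard error is the fold change (log2) over the root of its F statistic, and 95% intervals are normal. Adjustment took 17000 genes, a round number near the study's expressed genes, as if all unlisted genes had larger p-values. Normalized counts are counts divided by size factors, with a pseudocount of 1 in logarithms. Exact permutation tests were two-sided over 252 assignments (scipy 1.17.1). Figures used matplotlib 3.10.9.

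Members and gene lists were chosen with earlier results of these data known. Genes named were the members, every listed gene of the fixed lists that the text discusses, and the 5 genes nearest in pattern to each member among those averaging 50 or more normalized counts. Alternatives were DESeq2 1.42.0, TMM, median-of-ratios factors, listed-gene totals, no filter, robust = FALSE, adjustment over tested listed genes, a replicate block and each rat left out in turn. Samples sharing a number are different rats. P-values set a difference between the groups against the spread between rats, which edgeR estimates in part from other genes. Promoter sequences came from RefSeq (GRCr8), in which both members were matched by symbol.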

Additional observations from a re-analysis of the deposited data

Results flagged for a closer look

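Of 22 groups of 5 rats examined, over Pax6, Gja1, the other listed connexin, pannexin and lens epithelial genes and the 3 within-rat ratios, 2 held a rat far from the others, and chance alone gives about 1 group in 20. Both were Hypothermia replicate 5, with an FPKM of 18.4 for Gje1, whose other Hypothermia rats lay between 6.65 and 9.50, and of 22.8 for Panx2, whose other Hypothermia rats lay between 11.6 and 14.2. Pax6 and Gja1 had no such rat. The other lens fibre genes and the connexin partner genes were left out of this count. Among them, Hypothermia replicate 5 also stood far above the other Hypothermia rats for Tmod1, at 16.8 FPKM against 5.77 to 6.51. For Tdrd7 it was at 323 against 149 to 187, and for Prkca at 6.29 against 2.33 to 3.42. For Maf it was not the highest, at 127 where replicate 3 had 177. Its distance was thus not confined to Gje1 and Panx2.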

How the results depend on the processing

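The log2 fold change of Pax6 was below 0 in 19 of 19 alternatives, a sign largely fixed by its groups not overlapping, but its call was lost in 11 of them. These were the fit with robust = FALSE (-0.26, adjusted p = 0.0528 from edgeR), the replicate block and 9 of the fits without 1 rat each (over all 10 such fits, -0.28 to -0.24, the cause not tested). Gja1, not called with the authors' size factors, was called with TMM (-0.72), median-of-ratios factors (-0.75), listed-gene totals (-1.69), DESeq2 (-0.43), adjustment over the tested listed genes (-0.43, adjusted p = 0.0108 from edgeR) and that adjustment with TMM (-0.72), and without 1 rat it ranged from -0.49 to -0.36. The gain with adjustment over listed genes follows from the smaller number of genes.

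Genes called higher and lower in the Hypothermia Group numbered 1686 and 662 (edgeR). They became 639 and 1100 with TMM, 611 and 1101 with median-of-ratios factors, and 57 and 2398 with listed-gene totals, as every gene was shifted down. With adjustment over the tested listed genes 2052 were called higher and 1169 lower, and with TMM as well 1040 higher and 1167 lower. Without 1 rat each, between 1077 and 1721 were called higher and between 300 and 664 lower.

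Same-numbered rats did not deviate together (correlations from -0.19 to 0.235 over 5 pairs, and 0 of 5 best with its own number). With 5 pairs this cannot settle whether same-numbered samples shared a handling step, and the labels give no batch. With the replicate block Pax6 was -0.26 (adjusted p = 0.309) and Gja1 -0.44 (adjusted p = 0.157, edgeR), and 809 genes were called higher and 134 lower. Paired by number, the log2 ratios of Pax6 and Gja1 to the lens fibre sum differed by -2.37 and -2.55 with an exact sign-flip p of 0.0625, the smallest that 5 pairs allow. The 3 within-rat ratios otherwise kept direction and side of the threshold, but much of this was fixed beforehand. For Gja1 to Pax6, counts and FPKM differ only by constant gene lengths, so counts had to give the same difference. For the ratios to the fibre sum the groups did not overlap. Leaving out any rat thus had to keep the direction and the lowest possible p (0.0159, exact permutation test). These parts are no independent test. Depth of whole libraries is unknown, which limits every value that depends on scaling.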
